A study of Mus musculus with 6 samples.

Results

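The matrix metalloproteinases (MMPs) and their inhibitors were followed in sorted mammary tumor cells of mice, as 10 genes fixed by name: the proteases Mmp2, Mmp3, Mmp11, Mmp13, Mmp14 and Mmp23 and the inhibitors Timp1, Timp2, Timp3 and Reck. All 10 were found among the 41388 genes of the count files by their Ensembl identifiers. RNA-seq had been performed on 6 samples, 3 of tumor-initiating cells (TICs), which were sorted as CD24+CD90+CD45- cells, and 3 of non-CD24+CD90+ tumor cells, which here are called other tumor cells and were the CD45- cells outside that double-positive gate. The series description instead calls the comparison group CD24-CD90- cells, and the wording of the study's methods is used here. Both groups came from primary mammary tumors of 12-week-old female FVB/N-TgN(MMTVPyVT)634Mul/J mice, in which the mouse mammary tumor virus promoter drives the polyoma middle T oncogene in the mammary epithelium. The tumors were dissociated with DNase, collagenase and hyaluronidase before sorting, and 4 cell sorts were pooled for each sample, so that values of single mice cannot be seen.

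MMPs are zinc-dependent endopeptidases that are made as inactive precursors and together can cut most proteins of the extracellular matrix. Some are secreted, others are anchored in the plasma membrane, and their activity is held in check by the tissue inhibitors of metalloproteinases (TIMPs), small secreted proteins that bind the active site, and by Reck, an inhibitor anchored to the membrane. Mmp14 and Timp2 also act together: on the cell surface, Timp2 bound to one Mmp14 molecule recruits the precursor of Mmp2, which a neighboring free Mmp14 molecule then cuts. In mammary tumors, MMPs are made by tumor cells and, for several members, to a large part by fibroblasts and other stromal cells.

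Total counts per sample ranged from 6781239 to 9100552, so that 3 counts, the floor used here, stood for 0.33 to 0.442 CPM, the counts scaled to a common library size. Single libraries could also miss genes above this floor: among genes predicted at 20 to 60 counts from the remaining samples of a group, 23.2%, 19.1% and 24.5% had no count in other tumor cells replicates 1 to 3 and 27.2%, 31.9% and 39.7% in TICs replicates 1 to 3. The mitochondrial share of counts was 2.91%, 1.93% and 1.95% in other tumor cells and 3.21%, 3.51% and 5.01% in TICs. Both measures were higher in every TIC sample than in any of the other tumor cells, and their part in the differences below was not tested. TIC replicate 3, with the highest value of both, also had the lowest mean correlation with the other libraries (Pearson r = 0.701 across the log2 CPM of all tested genes, against 0.732 to 0.774 for the other 5, where genes are not independent replicates). The luminal epithelial genes Epcam and Krt18 were abundant in all 6 samples. Of 12192 genes above 1 CPM in at least 3 samples, 189 were called by edgeR's exactTest, the test of the study's methods, at an adjusted p-value under 0.1. Of these, 166 rose and 23 fell in TICs, or 87.8% higher. DESeq2 called 231 genes as higher and 75 as lower (75.5% higher), and the quasi-likelihood test 49 as higher and 1 as lower (98% higher).

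All 10 genes passed the filter on low values, Reck with 1 sample of other tumor cells and all 3 of TICs above 1 CPM. The proteases Mmp2, Mmp13 and Mmp14 rose in TICs, and no inhibitor passed the test. These were 3 of 10 genes, where exactTest called 1.36% of all tested genes as higher in TICs. The quasi-likelihood test of edgeR called 1 of the 10, Mmp14 (0.402% of all genes), and DESeq2 called the same 3 as exactTest (1.95% of all genes). Of the 4 inhibitors, none was called by any of these tools, and 1, Timp1, had an unadjusted p-value below 0.05. Over all 12192 tested genes, an unadjusted p-value of 0.038 from exactTest stood at rank 810 and one of 0.062 at rank 1098. These ranks are the scale for each count of genes below 0.05 given here. All 10 log2 fold changes were above 0, as were 49.7% of those of all tested genes. In 5 of the 10 genes, all of them proteases, the TIC samples all lay above those of other tumor cells, compared with 7.69% of all tested genes. The median log2 fold change was 1.57 over the 6 proteases and 0.84 over the 4 inhibitors, beside -0.01 over all tested genes. The 10 genes were chosen with earlier results of these data known, so that none of these shares tests the set. Among 17 further MMP genes outside the set, 5 were tested, none was called, and 1 had every TIC sample above. With 3 samples against 3, the smallest p-value of an exact permutation test is 0.1, so that smaller p-values rest on the spread that edgeR estimated across genes.

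**Figure D1:**
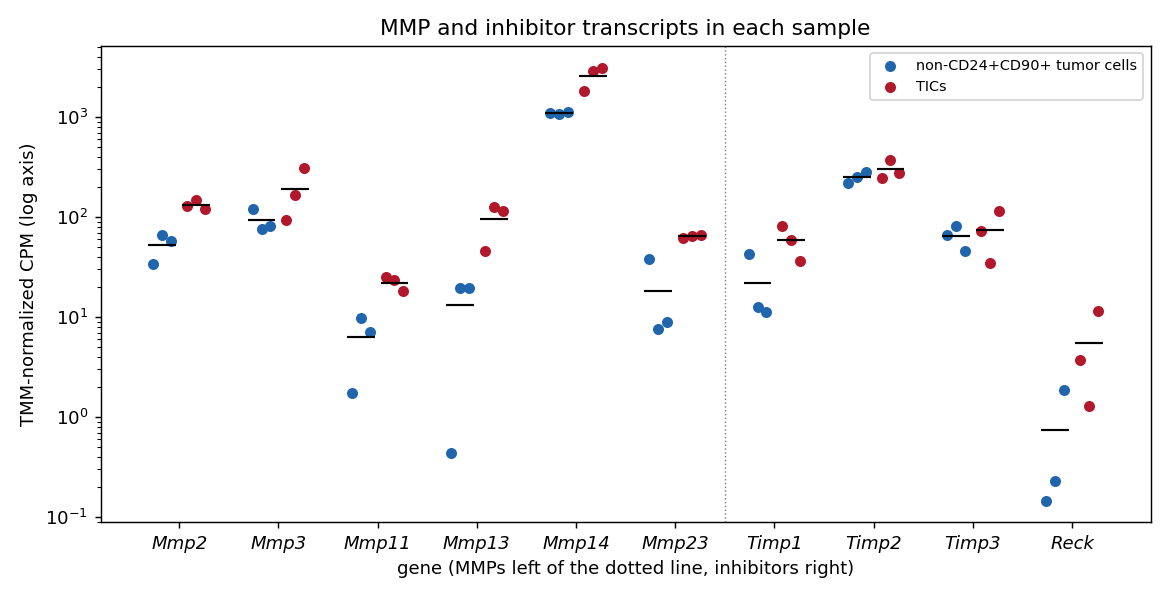
TMM-normalized CPM (log axis) of the 6 MMPs and 4 inhibitors, with 1 point per sample and a black bar at the group mean (blue, the 3 samples of other tumor cells; red, 3 samples of TICs). The red points lie above all blue points for Mmp2, Mmp11, Mmp13, Mmp14 and Mmp23, while the groups overlap for Mmp3 and all 4 inhibitors.

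Mmp14 is the membrane-anchored collagenase that cuts fibrillar collagen at the cell surface and activates Mmp2. Its gene (ENSMUSG00000000957) lies on chromosome 14 of GRCm38, from 54431612 to 54445364 on the plus strand. Mmp14 had 1113, 1069 and 1114 CPM in other tumor cells replicates 1 to 3 and 1811, 2875 and 3133 CPM in TICs replicates 1 to 3. The 3 comparison samples lay within a narrow band, and all 3 TIC samples lay above it, spread more widely. The means were 1099 ± 25.4 CPM and 2606 ± 701 CPM (SD, n = 3), a log2 fold change of 1.25 with a standard error of 0.29 (adjusted p = 0.0064 from edgeR's exactTest), or 2.37-fold with a 95% interval from 1.6 to 3.52. The call held in all 8 other settings that kept every sample, the weakest being the quasi-likelihood test of edgeR (adjusted p = 0.073). Leaving out other tumor cells replicate 2 raised the adjusted p-value from exactTest to 0.14, with the log2 fold change at 1.23.

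Mmp2, or gelatinase A, is a secreted protease that degrades denatured collagen and collagen IV. The gene (ENSMUSG00000031740) lies on chromosome 8, from 92827291 to 92853420. Its values were 34.3, 66.4 and 58.1 CPM in other tumor cells and 129.7, 148 and 120.3 CPM in TICs. The groups were clearly apart, since the lowest TIC sample lay well above the highest comparison sample. The means were 52.9 ± 16.7 CPM and 133 ± 14.2 CPM (SD, n = 3), a log2 fold change of 1.33 with a standard error of 0.36 (adjusted p = 0.041 from edgeR's exactTest). The quasi-likelihood test did not call Mmp2 (adjusted p = 0.17), while DESeq2 did (adjusted p = 0.024). The adjusted p-value from exactTest was 0.32 without other tumor cells replicate 1, 0.16 without their replicate 3 and 0.23 without TIC replicate 2, with the log2 fold change between 1.1 and 1.4 in these 3 fits.

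Mmp13, or collagenase 3, is a secreted protease that cuts fibrillar collagens, and its gene (ENSMUSG00000050578) lies in the MMP cluster of chromosome 9, from 7272514 to 7283331. It had 0.438, 19.4 and 19.7 CPM in other tumor cells and 46.2, 126 and 114 CPM in TICs. All TIC samples lay above the comparison samples, of which replicate 1 stood far below replicates 2 and 3. That value rested on 3 counts, against 171 and 138 counts in replicates 2 and 3. The means were 13.2 ± 11 CPM and 95.4 ± 43.0 CPM (SD, n = 3), a log2 fold change of 2.85 with a standard error of 0.79 (adjusted p = 0.077 from edgeR's exactTest). Without the low replicate 1, the log2 fold change fell to 2.29 and the adjusted p-value to 0.027. The adjusted p-value was 0.2 without replicate 2 of the same group, 0.18 without its replicate 3, 0.29 without TIC replicate 2 and 0.2 without TIC replicate 3. Mmp13 was also not called by the quasi-likelihood test (adjusted p = 0.28), with library size alone as normalization (adjusted p = 0.11 from exactTest) or without a filter on low counts (adjusted p = 0.13 from exactTest).

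The bases upstream of the annotated start of Mmp13 and Mmp14 are shown because both genes rose in TICs, and those of Mmp3 because it shares a match with Mmp13. RefSeq sequences of GRCm38.p6 were found for 9 of the 10 genes. Mmp2, which also rose in TICs, had no sequence and was not searched. The 250 bases before the start were searched on both strands for TGANTCA, the site of the AP-1 factors of the Fos and Jun families. They were also searched for AACCACA, the site of RUNX factors. In the sequences below, capitals mark these matches. The AACCACA match is on the plus strand, while TGANTCA is its own reverse complement and so has no strand.
Mmp13, chr9:7272264-7272513: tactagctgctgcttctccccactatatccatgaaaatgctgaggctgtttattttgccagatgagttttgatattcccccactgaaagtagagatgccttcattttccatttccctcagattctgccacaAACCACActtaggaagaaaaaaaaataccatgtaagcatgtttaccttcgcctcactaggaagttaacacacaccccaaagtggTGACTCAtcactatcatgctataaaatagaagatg
Mmp3, chr9:7445572-7445821: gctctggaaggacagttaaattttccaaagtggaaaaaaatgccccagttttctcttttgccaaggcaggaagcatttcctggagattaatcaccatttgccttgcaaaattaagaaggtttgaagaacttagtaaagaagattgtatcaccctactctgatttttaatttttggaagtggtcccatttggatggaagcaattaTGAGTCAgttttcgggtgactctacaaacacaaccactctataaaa
Mmp14, chr14:54431348-54431597: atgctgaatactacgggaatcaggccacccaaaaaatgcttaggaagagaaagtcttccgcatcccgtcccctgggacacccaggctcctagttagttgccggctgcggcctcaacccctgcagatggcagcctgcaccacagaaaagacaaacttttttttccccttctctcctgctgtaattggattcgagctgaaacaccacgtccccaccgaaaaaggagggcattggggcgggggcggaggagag
The AP-1 letters began at position -35 in Mmp13 and at position -46 in Mmp3, counted from the annotated start, and the RUNX letters of Mmp13 at position -119. Of the 9 genes, 2 held TGANTCA and 1 held AACCACA in this window. Among 32841 RefSeq promoter sequences of the same length, 6.75% held TGANTCA and 4.4% held AACCACA. These matches describe letters only, and binding was not measured.

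Mmp3, or stromelysin 1, cleaves proteoglycans, fibronectin and laminin and activates other MMP precursors. Its gene (ENSMUSG00000043613) lies in the same cluster as Mmp13 on chromosome 9, from 7445822 to 7455975. Mmp3 had 121, 76 and 81 CPM in other tumor cells and 93.4, 166 and 308 CPM in TICs. The groups overlapped, because TIC replicate 1 lay below replicate 1 of the comparison group. The log2 fold change of 1.03 (standard error 0.41) did not pass the test (adjusted p = 0.35 from edgeR's exactTest). Without TIC replicate 1 it was 1.37 and passed (adjusted p = 0.025 from edgeR's exactTest), and without TIC replicate 3 it was 0.51.

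Mmp23, a membrane-bound family member without the hemopexin domain found in most MMPs, is encoded on chromosome 4 from 155650655 to 155653384 on the minus strand (ENSMUSG00000029061). It had 38.2, 7.6 and 8.87 CPM in other tumor cells and 61.2, 65.4 and 65.6 CPM in TICs. The TIC samples agreed closely and lay above the comparison samples, which were split by a high replicate 1. The log2 fold change of 1.81 (standard error 0.62) was not called (adjusted p = 0.2 from edgeR's exactTest). Without replicate 1 of other tumor cells, the log2 fold change was 2.97 and the gene was called (adjusted p = 0.0038 from edgeR's exactTest).

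Mmp11, or stromelysin 3, which is activated inside the cell by furin, is encoded on chromosome 10 from 75923222 to 75936496 on the minus strand (ENSMUSG00000000901). It had 1.75, 9.87 and 7.15 CPM in other tumor cells and 24.9, 23.3 and 18.2 CPM in TICs. The groups did not overlap, but the log2 fold change of 1.82 (standard error 0.96) was not called (adjusted p = 0.73 from edgeR's exactTest). Of the 2778 exon bases of Mmp11, 5.6% overlap an exon of Chchd10 on the opposite strand, where reads cannot be assigned without strand information.

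Timp2 both blocks MMPs and serves as the adaptor between Mmp14 and pro-Mmp2, and its gene (ENSMUSG00000017466) lies on the minus strand of chromosome 11, from 118301069 to 118355740. Its values were 218, 253 and 280.4 CPM in other tumor cells and 248, 377 and 277 CPM in TICs. The groups overlapped, with TIC replicate 2 as the single high sample. The log2 fold change was 0.26 (95% interval -0.32 to 0.84, adjusted p = 1 from edgeR's exactTest), so that an increase up to 1.79-fold or a decrease to 0.802 of the comparison level lay inside the interval.

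Timp3, which is bound to the extracellular matrix and also inhibits ADAM proteases, is encoded on chromosome 10 from 86300372 to 86349506 (ENSMUSG00000020044). It had 66.3, 81.5 and 45.5 CPM in other tumor cells and 73.1, 34.5 and 114 CPM in TICs. The TIC samples spanned both sides of the comparison samples. The log2 fold change was 0.2 (95% interval -0.72 to 1.12, adjusted p = 1 from edgeR's exactTest), and it turned to -0.24 without TIC replicate 3. Timp3 lies within Syn3, a gene of the opposite strand, and 21.3% of its exon bases overlap exons of Syn3, where reads of both genes would be dropped if strand was not used.

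Timp1, a secreted inhibitor of most MMPs but a weak one of Mmp14, is encoded on chromosome X from 20870166 to 20874735 (ENSMUSG00000001131). It had 42.5, 12.7 and 11.2 CPM in other tumor cells and 80.8, 58.8 and 36.5 CPM in TICs. Replicate 1 of other tumor cells lay above TIC replicate 3, and the other samples were apart. The log2 fold change was 1.41, with a 95% interval from 0.22 to 2.59, and it was not called (adjusted p = 0.46 from edgeR's exactTest). Without other tumor cells replicate 1 the log2 fold change was 2.31, with an adjusted p of 0.1 from edgeR's exactTest, at the threshold but not past it. The interval is that of 1 gene and is not adjusted for the number of genes tested. Timp1 is nested in Syn1 without any shared exon base.

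Reck, which restrains MMPs including Mmp2 and Mmp14 at the cell surface, is encoded on chromosome 4 from 43875530 to 43944806 (ENSMUSG00000028476). It had few counts in every sample. They numbered 1, 2 and 13 in other tumor cells and 34, 11 and 88 in TICs. The groups overlapped, and the log2 fold change of 2.88 had a 95% interval from -0.47 to 6.22 (adjusted p = 0.9 from edgeR's exactTest). The counts were low and spread widely between replicates, so that neither a rise nor its absence can be concluded. The log2 fold change was 4.78 without other tumor cells replicate 3 and 1.75 without TIC replicate 3.

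**Figure D2:**
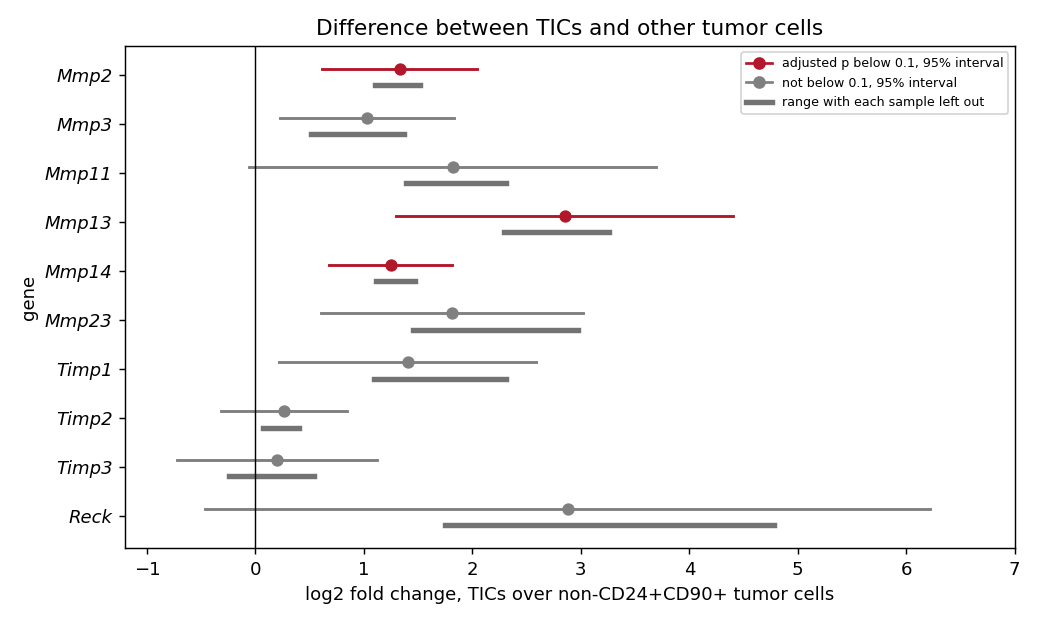
Log2 fold change of TICs over other tumor cells for the 10 genes, as points with 95% intervals from the negative binomial fit (red, adjusted p-value below 0.1; grey, not below 0.1), and as thick bars the range when each of the 6 samples was left out in turn. The bars of 9 genes stay above 0, while that of Timp3 runs from -0.24 to 0.54.

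To compare levels between genes, CPM were divided by the summed exon length in kilobases. Mmp14 had the highest level of the 10 genes in each of the 6 samples, at 184 ± 4.27 CPM per kilobase in other tumor cells and 437 ± 118 CPM per kilobase in TICs (SD, n = 3). In TICs it was followed by Mmp3 with 105 ± 60.5, Timp2 with 77.1 ± 17.4, Timp1 with 66.1 ± 24.9, Mmp2 with 39.4 ± 4.22, Mmp13 with 35.7 ± 16.1 and Mmp23 with 27.4 ± 1.06 CPM per kilobase. Each of the genes from Mmp3 to Mmp23 overlapped its neighbor in this order, while genes further apart could be separated. The lowest TIC values of Mmp3 (51.9) and Timp2 (63.6) lay above the highest of Mmp2 (44.0), Mmp13 (47.0) and Mmp23 (28.0), and all TIC values of Timp1 lay above those of Mmp23. Timp3 with 9.08 ± 4.9, Mmp11 with 7.98 ± 1.27 and Reck with 1.16 ± 1.13 CPM per kilobase formed the low end, where Timp3 and Mmp11 overlapped. In other tumor cells the second place was shared by Timp2 with 64.3 ± 8.0 and Mmp3 with 51.4 ± 13.7 CPM per kilobase, whose samples overlapped. Mmp13 was in eighth place there with 4.94 ± 4.13 CPM per kilobase and overlapped both neighbors in the order, Mmp23 and Mmp11.

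The balance of proteases to inhibitors was taken as the ratio of the summed levels per kilobase of the 6 MMPs to those of the 4 inhibitors, without a test, since the genes were chosen with results known. The MMP sum was 281, 255 and 263 CPM per kilobase in other tumor cells and 447, 702 and 809.6 CPM per kilobase in TICs. The inhibitor sum was 112, 89.2 and 90.5 CPM per kilobase in other tumor cells and 164, 167 and 129 CPM per kilobase in TICs. Both sums were thus higher in every TIC sample, by 2.45-fold for the MMPs and 1.58-fold for the inhibitors between the group means. The ratio of MMPs to inhibitors was 2.51, 2.86 and 2.9 in other tumor cells and 2.72, 4.19 and 6.29 in TICs. TIC replicate 1 lay inside the range of the comparison samples, and replicates 2 and 3 lay above it. On the log2 scale, the ratio was 1.46 ± 0.12 and 2.06 ± 0.61 (SD, n = 3), a difference of 0.59. This difference was 0.9 without TIC replicate 1 and 0.29 without TIC replicate 3.

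Mmp14 made up 66.4% to 71.1% of the MMP sum in other tumor cells and 64.9% to 68.7% in TICs, ranges that overlap. The share of Mmp13 in the MMP sum was 0.0582%, 2.84% and 2.81% in other tumor cells and 3.87%, 6.7% and 5.29% in TICs. Within the inhibitor sum, Timp2 held 50%, 72.7% and 79.5% in other tumor cells and 38.7%, 57.8% and 55.2% in TICs, while Timp1 held 42.7%, 16% and 13.9% and 55.4%, 39.5% and 32%. Replicate 1 of other tumor cells, with its high Timp1, was within the range of the TICs for both shares.

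Ratios of single pairs differed in whether they separated the groups. The pairs shown are a choice among those possible, and none was tested. Mmp14 over Timp2 was 3.34, 2.77 and 2.6 in other tumor cells and 4.78, 4.99 and 7.4 in TICs, and Mmp2 over Timp2 was 0.182, 0.304 and 0.239 against 0.605, 0.455 and 0.503. For both pairs, every TIC sample lay above every comparison sample. Values of Mmp14 and Mmp2 were already apart between the groups without the division, and those of Timp2 overlapped. These ratios thus repeat much of the separation of the proteases alone. Mmp14 over Timp1 was 3.91, 12.5 and 14.9 in other tumor cells and 3.34, 7.29 and 12.8 in TICs, and the groups overlapped. Mmp14 over Timp3 was 23, 17.9 and 33.5 against 33.9, 114 and 37.5, without overlap but with a narrow gap between 33.5 and 33.9. Mmp13 over Timp1 was 0.00342, 0.507 and 0.588 against 0.19, 0.711 and 1.04, Mmp3 over Timp1 was 1.4, 2.95 and 3.58 against 0.57, 1.4 and 4.15, and Mmp14 over Reck was 6118, 3779 and 480.2 against 389, 1797 and 216. The groups overlapped in these last 3 ratios.

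**Figure D3:**
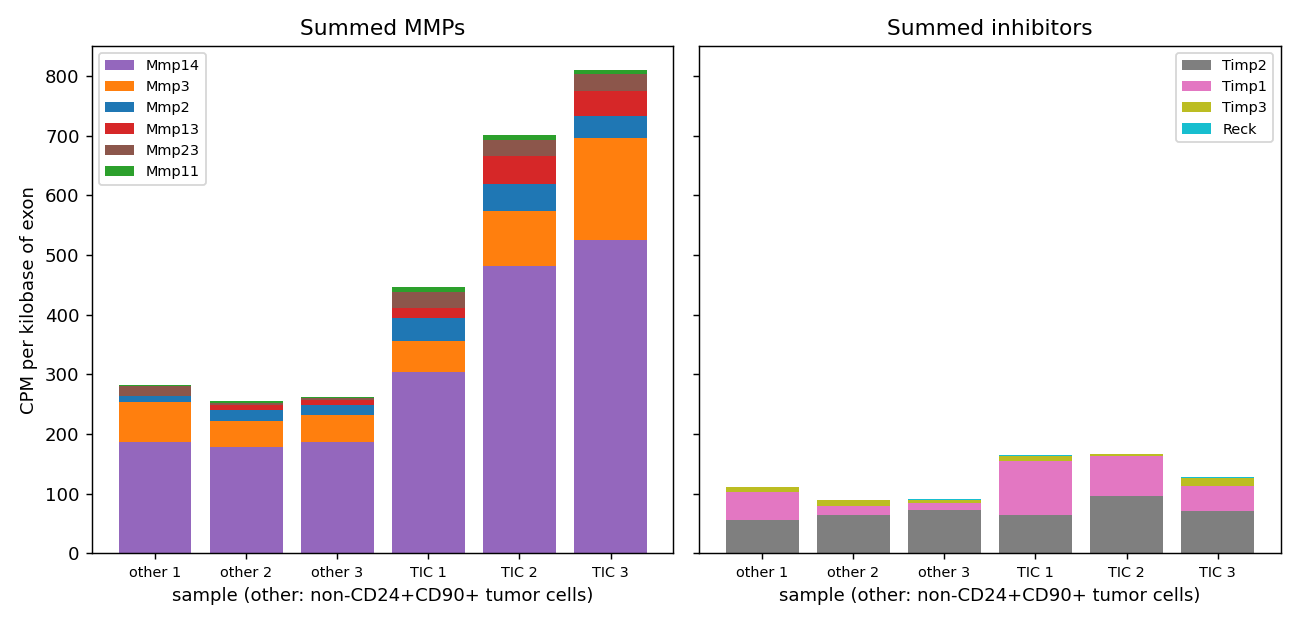
Summed levels of the 6 MMPs (left) and the 4 inhibitors (right) in CPM per kilobase of exon, with 1 stacked bar per sample and 1 color per gene. The MMP bars reach 447 to 809.6 CPM per kilobase in TICs and 255 to 281 in other tumor cells, and Mmp14 is the largest block in each. The inhibitor bars reach 129 to 167 CPM per kilobase in TICs and 89.2 to 112 in other tumor cells.

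The other genes of the family and of its regulation were read from lists written with earlier results of these data known. Of 17 further MMP genes, 10 had no count in any sample, 5 passed the filter, and none of these 5 was called by exactTest, the quasi-likelihood test or DESeq2 or had an unadjusted p-value below 0.05 in exactTest. Mmp15, a membrane-type MMP, had 142 ± 23.6 CPM in other tumor cells and 211 ± 27.1 CPM in TICs (SD, n = 3), a log2 fold change of 0.57 that was not called (adjusted p = 0.69 from edgeR's exactTest) although every TIC sample lay above. Mmp16, also of the membrane type, had 31.6 ± 19.7 and 32.1 ± 12.4 CPM. Mmp9, or gelatinase B, is named after its values were seen and had 0, 26 and 56 counts in other tumor cells and 19, 80 and 0 counts in TICs.

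Of 9 other genes of MMP inhibition and clearance, 6 passed the filter and 1 passed the test, which was Lrp1, the endocytic receptor that removes MMPs and their complexes with inhibitors from the cell surface. Lrp1 rose from 197 ± 59.5 to 459 ± 86.2 CPM (SD, n = 3), a log2 fold change of 1.22 (adjusted p = 0.021 from edgeR's exactTest, 0.12 from the quasi-likelihood test). Thbs2, a matrix glycoprotein that binds Mmp2 for uptake through Lrp1, had 56.1 ± 32.9 and 124 ± 32.2 CPM and was not called (adjusted p = 0.4 from edgeR's exactTest).

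Of 9 genes of pro-MMP activation, 7 passed the filter and 1 passed the test. Plat, or tissue plasminogen activator, rose from 34.1 ± 13.4 to 117 ± 45.6 CPM (SD, n = 3), a log2 fold change of 1.78 (adjusted p = 0.012 from edgeR's exactTest, 0.14 from the quasi-likelihood test). Furin, the convertase that activates Mmp11 and Mmp14, had 164 ± 30.3 CPM in other tumor cells and 104 ± 2.09 CPM in TICs, and the log2 fold change of -0.65 was not called (adjusted p = 0.56 from edgeR's exactTest), although every TIC sample lay below.

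None of 11 tested surface partners and none of 12 tested transcriptional regulators of MMPs were called by exactTest, the quasi-likelihood test or DESeq2. In exactTest, 2 partners and 1 regulator had an unadjusted p-value below 0.05. Over all 12192 tested genes, an unadjusted p-value of 0.038 from exactTest stood at rank 810. Among the partners were the tetraspanins Cd63, a receptor of Timp1, with 607 ± 61.6 and 557 ± 11.7 CPM, and Cd9 with 386 ± 39.0 and 415 ± 109 CPM (SD, n = 3). The AP-1 genes were present in both groups, Fos at 1091 ± 214 and 994 ± 243 CPM with a log2 fold change of -0.13 (95% interval -0.72 to 0.45) and Jun at 601 ± 144 and 679 ± 109 CPM with a log2 fold change of 0.18 (95% interval -0.4 to 0.75).

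The genes whose profile over the 6 samples was closest to that of a called member were found by the root mean square difference of their log2 CPM, each centred on its own mean, among 8761 genes with a mean of at least 10 CPM. For Mmp14 these were Serpine2, a secreted inhibitor of serine proteases (difference 0.134), Rgs5, a pericyte marker (0.148), and Col5a3, a collagen V chain (0.159). For Mmp2 they were Itgbl1 (0.142), Col6a3, a collagen VI chain (0.148), and Tmed5, a cargo receptor of the secretory pathway (0.171). The profile of Mmp13 had no neighbor as close, and the nearest were Crabp1, a retinoic acid binding protein (0.4), Sacm1l (0.485) and Sema3d (0.554). Of these neighbors, Serpine2, Rgs5, Itgbl1 and Col6a3 were called by exactTest. Col5a3, Tmed5, Crabp1, Sacm1l and Sema3d were not (adjusted p = 0.16, 0.73, 0.36, 0.8 and 0.52 from edgeR's exactTest).

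Markers of other cell types differed between the groups in some lists and overlapped in others. The summed level of 6 fibroblast markers, of which 2 passed the test as higher and Pdpn alone was below the filter, was 624 to 706 CPM in other tumor cells and 1006 to 2317 CPM in TICs. That of 7 pericyte and smooth muscle markers was 527 to 661 against 941 to 1369 CPM, with 1 of 7 called as higher, the pericyte gene Rgs5, while the smooth muscle genes Acta2 and Myh11 had log2 fold changes of -0.01 and 0.07. That of 7 endothelial markers was 116 to 132 against 149.9 to 565 CPM, with none called by exactTest, the quasi-likelihood test or DESeq2 and 4 at an unadjusted p-value below 0.05 in exactTest. Each of these 7 genes overlapped between the groups when taken alone. By exactTest, 4 of 5 tested fibroblast markers and 3 of 7 pericyte and smooth muscle markers had an unadjusted p-value below 0.05. Every TIC sample lay above in 4 fibroblast markers and in 4 pericyte and smooth muscle markers, as in 7.69% of all tested genes. TIC replicate 3 had the highest endothelial sum, with Kdr at 177 CPM against 32.8 and 25.8 CPM in TIC replicates 1 and 2. Most of the fibroblast sum came from Dcn, with means of 517 CPM in other tumor cells and 1444 CPM in TICs. TIC replicates 2 and 3 were above TIC replicate 1 in all 3 sums. This order was also seen in Mmp3, Mmp13, Mmp14 and Mmp23 and in Timp2, but not in Mmp2, Timp3 or Reck. Mmp11 and Timp1 were highest in TIC replicate 1. The TIC values of Mmp23 lay close together, at 61.2, 65.4 and 65.6 CPM. How many of all tested genes share this order was not counted, and a link to the marker sums was not tested. The sum of 7 luminal epithelial markers was lower in every TIC sample, at 3765 to 4351 CPM against 5709 to 6013 CPM. None of the 7 was called by exactTest or the quasi-likelihood test, and 2 were called by DESeq2. In exactTest, 2 of the 7 had an unadjusted p-value below 0.05, where 0.038 stood at rank 810 of all 12192 tested genes.

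The sum of 4 basal or myoepithelial markers overlapped, at 449 to 983 CPM in other tumor cells and 356 to 583 CPM in TICs. The 7 leukocyte and macrophage markers also overlapped in their sum (61.5 to 82.7 against 81.5 to 153 CPM). Of the 7, 1 was called as higher, the lysozyme gene Lyz2 of myeloid cells. It had 9.63, 11.8 and 4.29 CPM in other tumor cells and 62.0, 75.3 and 28.0 CPM in TICs. Its log2 fold change was 2.68 (adjusted p = 0.012 from edgeR's exactTest, 0.14 from the quasi-likelihood test and 0.0035 from DESeq2). The other tested markers of this list, Cd68, Csf1r and Cd14, were not called and had log2 fold changes of -0.31, -1.68 and -0.01. Adgre1, a macrophage marker, had no count in any sample, and Ptprc, the gene of CD45, was counted in a single library, at 33 counts in other tumor cells replicate 1. Itgam, which was below the filter, had 63, 4 and 0 counts in TICs replicates 1 to 3 and no count in other tumor cells. Of 4 adipocyte markers, Adipoq, Plin1 and Lep had no count in any sample, and the sum consisted of Fabp4, which is also made by endothelial cells and was called as higher, at 56.5 to 137 against 192 to 1225 CPM. The part of these cell types in the MMP differences was not tested, and in bulk RNA a larger share of a cell type cannot be told apart from more RNA per cell.

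**Figure D4:**
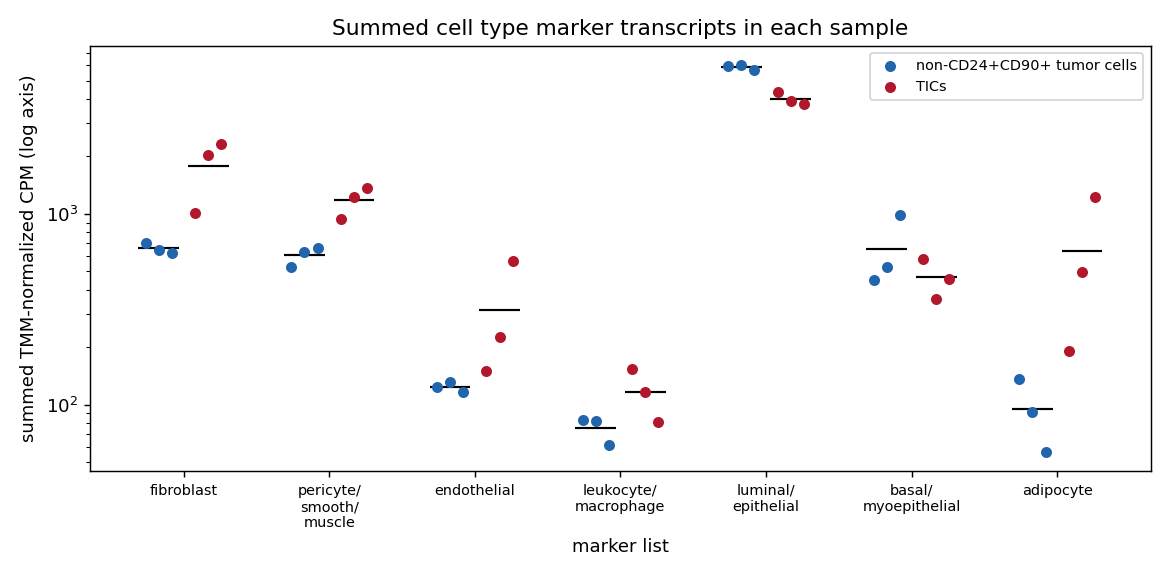
Summed TMM-normalized CPM (log axis) of 7 lists of cell type markers, with 1 point per sample and a black bar at the group mean (blue, other tumor cells; red, TICs). The fibroblast sums are 624 to 706 CPM in other tumor cells and 1006 to 2317 CPM in TICs, and the luminal epithelial sums are lower in all 3 TIC samples.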

How the data were processed

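Per the labels and the study's methods, the authors used Trimmomatic 0.32 for trimming, STAR 2.4.0 for alignment to GRCm38, SAMtools 1.1 to discard reads without a unique position and HTSeq for counting per gene. The HTSeq version, annotation and strand setting are not given in the sources used here. The deposited values are raw counts per Ensembl gene, so that reads shared with near-identical genes are missing. Symbols, positions and exon lengths came from GENCODE M21 on GRCm38, which named 40254 of 41388 genes.

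Genes above 1 CPM in at least 3 samples were kept, since the study states a CPM filter but not its value. Counts were normalized by TMM in edgeR 4.0.16 under R 4.3.3, and the groups were compared by exactTest with common and tagwise dispersions (common dispersion 0.678) and Benjamini-Hochberg adjustment over all tested genes, at a threshold of 0.1. Standard errors and 95% intervals came from the negative binomial fit. Sums of MMPs and of inhibitors used CPM per kilobase of exon, while sums of markers and the mean of log2 values used CPM. Log2 CPM used a prior count of 2. The quasi-likelihood test, DESeq2 1.42.0, other normalizations, filters and dispersions, and each sample left out in turn served as alternatives. The scripts were tested on simulated data.

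The 10 genes and all lists were chosen with earlier results of these data known. Named genes are the 10, the called and the 2 most abundant genes of each regulatory list, and the 3 closest profiles of each called member. Replicates are numbered in accession order, and each is a separate pool, which no label ties to a pool of the other group. The study counts a total of 12 mice over the pooled sorts. Whether pools of both groups came from the same tumors is not stated, so that a pairing may exist that could not be used. All replicate pairs differed by more than counting noise.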

Additional observations from a re-analysis of the deposited data

How the results depend on the processing

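All 10 log2 fold changes kept their direction in the 8 other settings with every sample, where a value could be had (Mmp13 and Reck were below a minimum of 10 counts per sample), and when 1 sample was left out, with 1 exception: Timp3 turned to -0.24 without TIC replicate 3 and reached 0.54 without TIC replicate 2. The number of the 10 genes called was 3, and it was 1 in the quasi-likelihood test, 2 with library size alone, without a filter or at an adjusted p-value below 0.05, and 3 with DESeq2, RLE size factors, trended dispersions or at least 10 counts in every sample, the last with Mmp23 in place of Mmp13 (adjusted p = 0.099 from edgeR's exactTest). It ranged from 1 to 4 with a sample left out, and was 1 without other tumor cells replicate 2, without their replicate 3 and without TIC replicate 2. Mmp14 alone was called in all 8 settings. Over all genes, 189 were called, against 50 in the quasi-likelihood test, 306 in DESeq2, 112 without a filter (17168 genes tested) and 116 below 0.05. With a sample left out the number ranged from 72 to 323. It was 87, 90 and 72 without other tumor cells replicates 1, 2 and 3, 323 without TIC replicate 1 and 102 without TIC replicate 2. The share of calls that were higher in TICs, 87.8% in all, ranged from 69.7% (225 higher and 98 lower without TIC replicate 1) to 97.8% with a sample left out, and was 96.4% without a filter. The log2 difference in the ratio of proteases to inhibitors was 0.59, and 0.86 without division by exon length, 0.69 without Mmp14, 0.86 as a mean of log2 values and 0.6 without Reck. It ranged from 0.29 to 0.9 with a sample left out. The groups overlapped in the ratio per kilobase, as a mean of log2 values and without Reck. They did not overlap without the division by length or without Mmp14. Without Mmp14 the log2 ratio was -0.2 in TIC replicate 1, close to -0.23 in other tumor cells replicate 2. No paired analysis was possible because no label pairs the samples. Low counts and their spread between replicates limit Reck and Mmp11, and low counts limit the value of Mmp13 in other tumor cells replicate 1.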
